A study of Homo sapiens with 2 samples.

Results

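FAIRE peaks in introns and between genes were examined on chromosome 14 between 20 and 45 Mb (hg38), a stretch of the long arm that is crowded with such peaks in HepG2 cells. Members were all listed peaks on chromosome 14 whose start lay in this interval and which the deposited annotation classed as intron or Intergenic. Peaks of these classes are called distal here, although some lie near promoters. Of the 8043 members, 7631 were over 3000 bp from a transcription start site (TSS). They numbered 8043 of 56159 listed peaks, and made up 17.4% of the 46224 distal peaks of the series. The interval had been picked from peak numbers in the same lists, so its peak density and its edges are given as a description without a test. No correction of the peaks for DNA copy number or input is stated. More DNA and more open chromatin therefore cannot be told apart in the peak density, and the part of copy number was not tested.

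FAIRE, short for formaldehyde-assisted isolation of regulatory elements, is an assay that recovers DNA left free of protein after crosslinking. HepG2, an established human liver cancer cell line, was transduced with lentiviral particles carrying either a scrambled shRNA (control) or an shRNA against NR2E3, an orphan nuclear receptor (NR2E3-depleted). There was 1 library for either treatment and a single hairpin in the depleted one, which leaves no test of condition, and hairpin, library and condition cannot be told apart. The peaks had been deposited in 3 lists, namely common to both libraries, control-specific and depleted-specific. Intervals below are exact 95% Clopper-Pearson or binomial intervals, or are built from these by Newcombe's method. They allow for counting error alone, as if each peak were a separate draw, whereas neighbours share DNA and libraries. Promoter peaks were listed for 8 of 12 hepatocyte marker genes, among them APOA1, HNF4A and SERPINA1, but not for ALB, AFP, TTR and FGB, and for 0 of 7 markers of other cell types. NR2E3 itself had no promoter peak, and FAIRE does not measure its transcript.

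Distal open sites are the places where enhancers, insulators and silencers lie, and in liver cells many are held open by pioneer factors of the FOXA family together with HNF4, HNF1 and CEBP proteins. The interval begins among olfactory receptor genes and runs through the T cell receptor alpha and delta gene segments, which are rearranged only in T cells. It continues through gene-rich blocks, long genes known from neurons such as NPAS3 and LRFN5, and the cluster of developmental regulators NKX2-1, NKX2-8, PAX9 and FOXA1. It held 198 protein-coding genes, or 7.92 per Mb, against 6.38 per Mb on the rest of chromosome 14.

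The sequences of the strongest common and the strongest depleted-specific member are shown because these are the tallest members by score of the segment. Each sequence is the first 300 bases of the peak on the plus strand of hg38, and capitals mark matches on either strand to the motifs searched below. The common peak at chr14:37865002-37865301 had a score of 22.4, and the depleted-specific peak at chr14:35826740-35827039 had a score of 23.3.
Common, chr14:37865002-37865301: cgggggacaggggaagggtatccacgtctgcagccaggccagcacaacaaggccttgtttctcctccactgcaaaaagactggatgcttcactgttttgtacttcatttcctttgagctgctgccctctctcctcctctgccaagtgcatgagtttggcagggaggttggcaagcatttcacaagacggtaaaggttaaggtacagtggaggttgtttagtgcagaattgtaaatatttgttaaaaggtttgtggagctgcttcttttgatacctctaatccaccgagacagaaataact
Depleted-specific, chr14:35826740-35827039: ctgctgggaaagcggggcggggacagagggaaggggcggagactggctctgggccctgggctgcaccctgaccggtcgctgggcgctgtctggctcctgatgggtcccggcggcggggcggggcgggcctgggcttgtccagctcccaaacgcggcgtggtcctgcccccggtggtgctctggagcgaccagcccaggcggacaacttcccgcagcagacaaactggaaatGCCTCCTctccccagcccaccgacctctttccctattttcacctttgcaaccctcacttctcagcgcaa
The strongest common peak, 36972 bp from the TSS of LINC00517, held none of the motifs searched, and the depleted-specific peak held 1 CTCF core match. Other strong members were a common peak in an intron of C14orf93 (score 20.7) with 2 FOXA matches and 1 CTCF match, control-specific peaks nearest to PSMB5, a proteasome subunit gene, and to SNORA89 (10.6 each, a score at which 5 members of that list tied), and a depleted-specific peak at -15024 bp from the TSS of FBXO33 (15.2).

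The strongest depleted-specific peak lay beside a peak of another list. The depleted-specific peak of score 23.3 (46 tags) was in intron 1 of BRMS1L, a gene for a component of the SIN3-HDAC co-repressor complex, 552 bp from its TSS, and its GC content was 68.1%. The BRMS1L promoter peak from 35826169 to 35826469 was listed as common with a score of 18.3 (45 tags), so that the promoter was open in both libraries. The tallest member of a specific list thus stood next to a common promoter peak. The tags and score of the common peak are on the control scale, so its height in the depleted library is not known.

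The dense stretch was narrower than the interval used to choose it. Edges were fitted as the pair of 100 kb boundaries that gave the highest Poisson likelihood for constant rates inside and on each side. They fell at 22000000 and 43400000, and 7886 members lay between them at 368.5 per Mb. The 2 Mb of the interval before the left edge held 151 members (75.5 per Mb), and the 1.6 Mb after the right edge held 6 (3.75 per Mb). By the rule itself the first member started at 20247715 and the last at 44913747, and the nearest distal peaks outside started at 19927378 and 45268590.

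**Figure D1:**
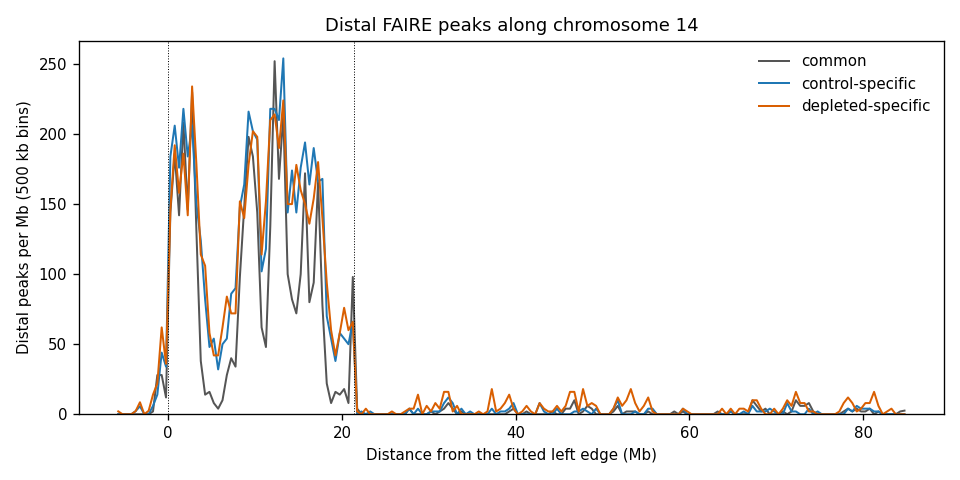
Distal peaks per Mb in 500 kb bins along chromosome 14, by list, against the distance in Mb from the fitted left edge; dotted lines mark both fitted edges. All 3 lists are high between the edges, with dips shared by the lists, and low on the rest of the chromosome, where the mean over all lists was 6.91 peaks per Mb.

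The right edge was abrupt and the left edge was stepped. The last 500 kb inside the right edge held 128 members and the 500 kb outside held 2. The centre of the next member lay 449361 bp beyond that of the last peak inside, whereas the largest gap between neighbouring centres inside the edges was 65653 bp. GC content hardly differed across this edge (34.3% inside and 34.9% outside), and no protein-coding gene body lay within 500 kb on either side. The left edge fell within the T cell receptor segments, which run from 21621838 to 22552156. Of the 301 members there, 29 lay before the edge and 272 after it. The 500 kb inside the left edge held 237 members and the 500 kb outside held 41, at GC contents of 39.4% and 39.7%. The first member inside, from 22003064 to 22003364, was control-specific with 17 tags. Fitted on single lists, the right edge fell between 43300000 and 43400000, and the left edge at 21900000 for control-specific, 22000000 for common and 21000000 for depleted-specific members.

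**Figure D2:**
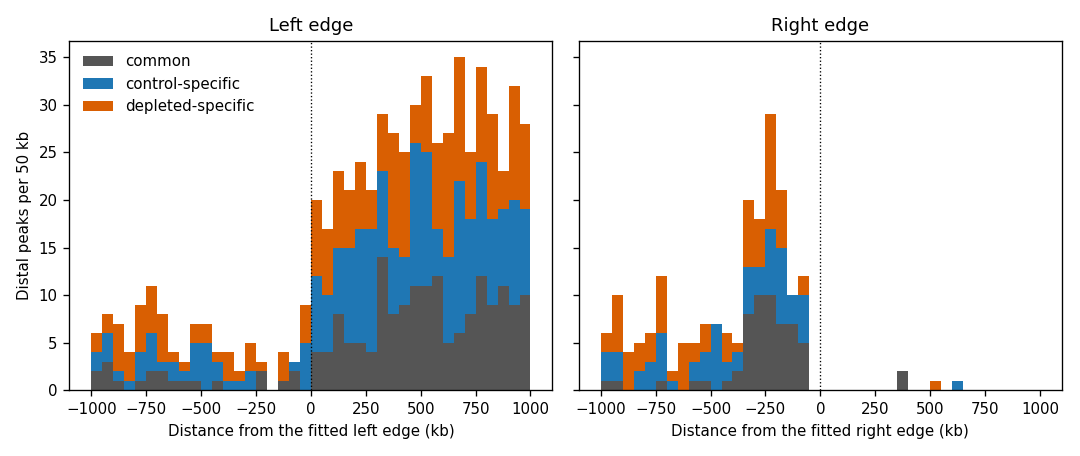
Distal peaks per 50 kb within 1 Mb of the fitted left and right edges, stacked by list. Counts at the left edge step up on a low level of peaks that is already present outside, while to the right of the right edge almost no peaks remain and the last 50 kb before it are empty.

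Density varied widely inside the dense stretch. A partition of the interval into constant rates gave 13 plateaus, of which the highest, from 33500000 to 35500000, held 626.5 members per Mb. Peaks covered 18.8% of its sequence, and the median distance between neighbouring centres was 1125.5 bp. This plateau contains EGLN3, the gene for an oxygen-sensing prolyl hydroxylase, and NFKBIA. Plateaus from 22000000 to 25600000 and from 30100000 to 32500000 were nearly as dense, at 531.1 and 522.1 members per Mb. The lowest plateau between the edges, from 26400000 to 28400000, held 102.0 members per Mb, and that from 40000000 to 43000000 held 133.3. Both of these are poor in genes, with gene bodies over 7.75% and 9.92% of their sequence.

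The last 400 kb before the right edge stood out from its surroundings. From 43000000 to 43400000 there were 115 members, or 287.5 per Mb, although this plateau had the lowest GC content of all 13 (33.9%) and no gene body. Of the control-library peaks there, 59.8% were common (48.3% to 70.4%). In the plateau before it, from 40000000 to 43000000, 21.0% were (15.6% to 27.2%) at a GC content of 34.7%. Among 23 bins of 1 Mb with at least 50 members, member number and GC content had a Spearman rho of 0.76, and member number and gene body share one of 0.72. These bins share libraries, depth and base composition, and the values are descriptive.

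Neighbouring members were a median of 1473.5 bp apart over all lists, with quartiles of 782 and 3139.8 bp, and 86.5% of pairs were under 5000 bp apart. On the rest of chromosome 14 the median was 42592.5 bp, and 15.5% of pairs were under 5000 bp apart. Within single lists the segment medians were close to each other, at 4395.5 bp for common, 4323.0 bp for control-specific and 4596.0 bp for depleted-specific members. On the rest of the chromosome they were 276361.0, 281384.0 and 79285.0 bp, so that depleted-specific peaks were the most closely spaced list there.

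**Figure D3:**
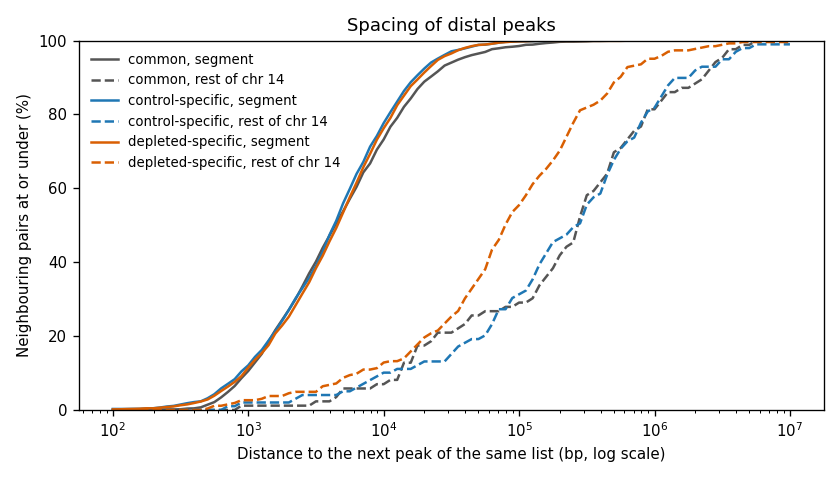
Cumulative share of neighbouring pairs of the same list (in %) at or under a given centre-to-centre distance (in bp, log scale), for the segment (solid) and the rest of chromosome 14 (dashed). The 3 solid curves nearly coincide, with medians between 4323.0 and 4596.0 bp, while the dashed depleted-specific curve lies to the left of the other dashed curves.

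The lists were interleaved. Of 8042 neighbouring pairs, 34.3% were of the same list, against 34.1% computed from the list shares alone. The longest runs were 8 common, 9 control-specific and 12 depleted-specific members. No control-specific centre lay within 300 bp of a depleted-specific centre (0 of 3000), nor did any on the rest of chromosome 14 (0 of 100). Overlapping peaks of both libraries may have been listed as common, so this 0 can be set by how the lists were made. Within 1000 bp of a depleted-specific centre lay 857 control-specific members (28.6%, 26.96% to 30.2%), against 7 of 100 on the rest of chromosome 14. Depleted-specific peaks numbered 117.1 per Mb in the segment and 4.06 per Mb on the rest. The segment had been chosen for its density, and the share from density alone was not computed, so this contrast is descriptive. A common centre lay within 300 bp of 12 control-specific members and of 0 of 2928 depleted-specific members. This 0 too can be set by how the lists were made.

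The next comparison asked how the libraries differed within the segment. In a bulk library, an open site in fewer cells and a less open site in each cell cannot be told apart. The members comprised 2115 common, 3000 control-specific and 2928 depleted-specific peaks. Depleted-specific peaks thus made up 36.4% of members (35.4% to 37.5%), against 46.5% of all distal peaks of the series. Control-specific peaks made up 37.3%, against 31.3% over the series, and common peaks 26.3%, against 22.1%. The ratio of depleted-specific to control-specific members was 0.976 (0.927 to 1.03), while on the rest of chromosome 14, with 266 and 100 peaks, it was 2.66 (2.11 to 3.38). The ratio near 1 depended on the peak height counted. It was 0.359 among peaks of at least 15 tags and 1.39 among peaks with a score of at least 6.5, so the segment gave no stable direction between the libraries. From the rest of chromosome 14 to the segment, density was 78.7 times higher for control-specific (64.5 to 97.0), 63.8 times for common (51.4 to 79.95) and 28.9 times for depleted-specific peaks (25.5 to 32.9). Peak numbers had chosen the segment, so these folds are descriptive.

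The mix of lists differed between bins of high and low member number. The same members enter the common share, and peaks of both libraries can overlap by position alone where they are crowded. Peaks covered 18.8% of the densest plateau and 3.06% of the sparsest between the edges. Overlap from density alone was not computed, so the values below are descriptive. In the 13 bins of 1 Mb with 400 or more members, 43.5% of control-library peaks were common (42.0% to 45.02%) and the ratio of depleted-specific to control-specific members was 0.935 (0.882 to 0.991). In the 9 bins with 50 to 199 members, 28.4% were common (25% to 31.95%) and the ratio was 1.14 (1.00 to 1.29). Among bins with at least 50 members, the lowest common share was 12.2%, in the gene desert that starts at 27 Mb, where 6 common, 43 control-specific and 42 depleted-specific members were listed. The bin starting at 43 Mb, with 118 members, was the exception, with a common share of 60.7%. Over the whole segment 41.3% of control-library peaks were common (39.99% to 42.7%), and on the rest of chromosome 14 46.5% were (39.2% to 53.9%), with overlapping intervals. Of depleted-library peaks, 41.9% were common in the segment (40.6% to 43.3%) and 24.6% on the rest (20.2% to 29.5%).

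**Figure D4:**
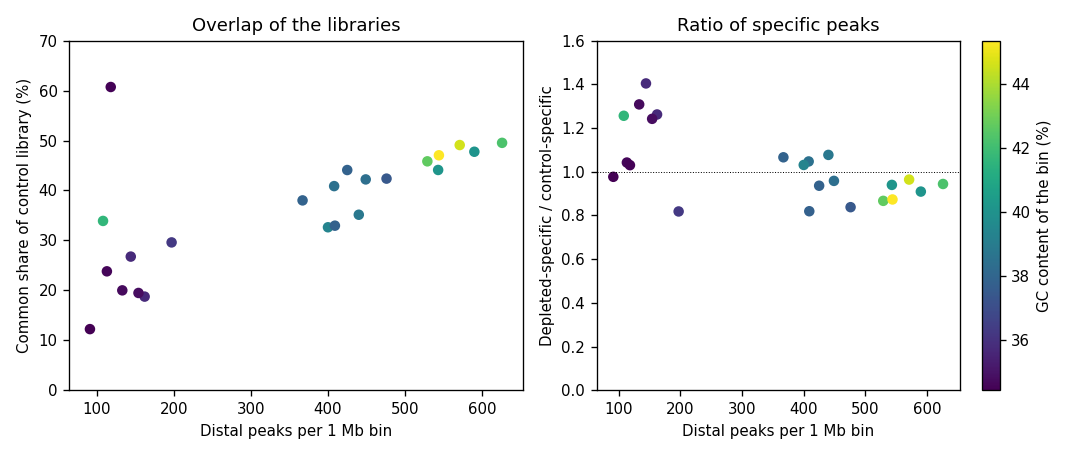
Common share of control-library distal peaks (left, in %) and ratio of depleted-specific to control-specific peaks (right) against the number of distal peaks, for the 23 bins of 1 Mb with at least 50 members, coloured by GC content. The 13 bins with 400 or more members lie between 32.6% and 49.5% common, whereas the other bins run from 12.2% to 60.7%.

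Peak heights were modest throughout. The score is a scaled tag number, and scores under 10 were whole multiples, within rounding, of 0.507 in the depleted-specific list and of 0.407 in the other lists. Common members had a median of 16 tags (11 to 55), control-specific members 15 (11 to 26) and depleted-specific members 13 (9 to 46). The order was another one by score, with medians of 6.51 for common, 6.1 for control-specific and 6.59 for depleted-specific members. The scores of common peaks are on the control scale. A score of 10 or more was reached by 113 common, 6 control-specific and 25 depleted-specific members, 144 in all. There were 20 in the bin starting at 31 Mb (590 members), 19 in that at 35 Mb (543 members) and 17 in that at 24 Mb (571 members). Other dense bins had few, with 2 of 408 members at 32 Mb, 3 of 440 at 33 Mb, 1 of 400 at 36 Mb and 1 of 409 at 38 Mb. The bins starting at 26, 27, 28, 41 and 44 Mb held none.

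The members had been limited to intron and Intergenic peaks, but neither the split between these classes nor base composition had been used to choose them. Intergenic peaks made up 57.1% of members (56.1% to 58.2%) and 47.2% of distal peaks on the rest of chromosome 14 (42.6% to 51.95%), a difference of 9.90 percentage points (5.07 to 14.7). The underlying sequence differed in the same sense, as protein-coding gene bodies covered 35.8% of the segment and 47.6% of the rest. Members were centred in gene bodies more often than the sequence share of the segment, in 45.9% (44.8% to 47.0%). The 3 lists were alike, with 56.0% intergenic among common, 57.4% among control-specific and 57.7% among depleted-specific members. The median GC content of members was 41.9%, against 37.5% in all 301 bp windows of the segment and 45.2% in peaks on the rest of chromosome 14. Medians were 42.2% for common, 41.9% for control-specific and 41.5% for depleted-specific members. In 12 of the 13 plateaus the median member was richer in GC than the sequence around it. The exception was the plateau from 22000000 to 25600000, which had the highest GC content of the 13 (43.2%) and a difference of only -0.0438 points.

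Motifs of factors active in liver and of general factors were then counted in the 301 positions of each peak, on both strands. FOXA, the pioneer factor of liver enhancers, was searched as TGTTTAC or TGTTTGC, the nuclear receptor HNF4 as CAAAGTCCA, CEBP as TTGCNNAA, AP-1 as TGANTCA, the insulator protein CTCF by the short core AGGNGGC, and HNF1 by a longer string. Matches of different motifs may share bases. A match is a letter string and was not read as a bound site.

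Peaks of the segment held FOXA matches about as often as any window of the segment did. A FOXA match was found in 9.64% of members (8.999% to 10.3%) and in 9.98% of all 301 bp windows of the segment. Of peaks on the rest of chromosome 14, 21.4% held one (17.7% to 25.5%), while its windows did so in 9.48%. The difference between segment members and peaks on the rest was -11.8 points (-15.9 to -8.03). HNF4 matches were found in 0.472% of members, 0.323% of segment windows and 3.75% of peaks on the rest (2.20% to 5.94%), with a difference of -3.28 points (-5.47 to -1.72). Segment members exceeded segment windows in HNF4 by 0.150 points (0.00592 to 0.329). Median peak height was 14 tags in segment and rest alike, but a tag stands for a different score in the depleted-specific list. The median score was 6.1 in the segment and 6.51 on the rest, and 47.3% and 35.5% of peaks had at least 15 tags. Depleted-specific peaks made up 58.7% of the rest, and median GC was higher there. The part of peak height, list mix and GC in the motif differences was not tested.

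AP-1 matches were found in 10.3% of members, 9.27% of segment windows (difference 1.07 points, 0.386 to 1.79) and 16.6% of peaks on the rest (difference -6.21 points, -10.0 to -2.84). CTCF core matches stood above the windows in the segment as well, at 14.7% of members against 11.1% of windows, a difference of 3.65 points (2.85 to 4.47). They were found in 21.9% of peaks on the rest, where 14.8% of windows held one. For AP-1, 8.96% of windows on the rest held a match. CEBP matches were found in 16.7% of members and 16.97% of windows (difference -0.259 points, -1.11 to 0.61). The difference of members from the 20.1% on the rest had an interval that included 0 (-7.45 to 0.312 points). Peaks on the rest exceeded the windows there, of which 15.2% held a CEBP match, by 4.89 points (1.29 to 8.88). HNF1 was found in 1 member and in 2 peaks on the rest, too few to compare. Among the lists, FOXA matches were found in 9.98% of common, 9.37% of control-specific and 9.67% of depleted-specific members, with overlapping intervals. The CTCF core differed more, at 16.5% of common (14.94% to 18.15%), 14.5% of control-specific and 13.6% of depleted-specific members (12.4% to 14.92%). AP-1 ran the other way, at 9.22%, 10.1% and 11.4%, with overlapping intervals. Intervals of the lists overlapped for HNF4 and CEBP too. The part of GC in these differences was not tested.

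**Figure D5:**
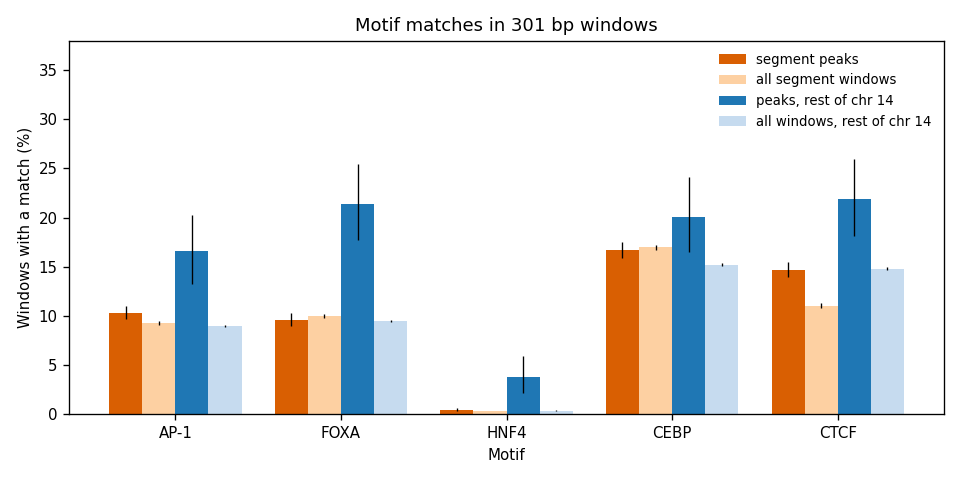
Share of 301 bp windows (in %) with a match to each of 5 motifs, for segment peaks, all segment windows, peaks on the rest of chromosome 14 and all windows there; bars are shares and lines are exact 95% intervals. For FOXA the bar of peaks on the rest, 21.4%, is well above the other bars, which lie between 9.48% and 9.98%.

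Strong members held matches of several motifs more often than the others. Of the 144 members with a score of 10 or more, 18.75% held a FOXA match (12.7% to 26.1%), against 9.47% of the 7899 others, a difference of 9.28 points (3.23 to 16.7). For AP-1 the shares were 16.7% and 10.2% (difference 6.44 points, 0.709 to 13.6), and for the CTCF core 21.5% and 14.6% (difference 6.94 points, 0.487 to 14.6). For CEBP they were 22.9% and 16.6%, with an interval that included 0 (-0.320 to 14.1 points). For HNF4 they rested on 2 and 36 members, and the interval of the difference included 0. Of the 144 strong members, 113 were common, against 2115 of all 8043 members. The part of list mix, score scale and GC in these differences was not tested.

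Nearest genes gave a view of where members gathered. The members were assigned to 211 nearest genes, and the 8 genes with most members took 26.3% of them. STXBP6, the gene for amisyn, a regulator of SNARE-mediated secretion, led with 450 members (131 common, 148 control-specific and 171 depleted-specific). FBXO33, an F-box protein gene, followed with 306 (76, 114 and 116) and EGLN3 with 264 (96, 92 and 76). LRFN5, a synaptic adhesion gene, and the small nucleolar RNA gene SNORA89 each had 232, of which 27 and 44 were common. LOC105370401 had 226, the kinase gene PRKD1 had 213, and SPTSSA, a small subunit of serine palmitoyltransferase, had 189. Depleted-specific members outnumbered control-specific ones at 83 genes, the reverse held at 103 genes, and 25 genes had equal numbers. The largest excesses of depleted-specific members were at NPAS3 (92 against 66), STXBP6 (171 against 148) and LRFN5 (113 against 92). The largest in the other direction were at LOC105370401 (66 against 88), EGLN3 (76 against 92) and NFKBIA (27 against 42), the gene for the NF-κB inhibitor IκBα. These genes were the extremes of 211, and no test was made.

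The list of long genes, several of them known from neurons, had a median of members per length below that of all long genes between the edges. All 7 had members in their body, 954 in total (243 common, 344 control-specific and 367 depleted-specific). Per length, STXBP6 had 84.75 members per 100 kb of gene body and NOVA1, a neuronal splicing regulator, had 7.10. The median of the 7 was 36.0. PRKD1 had 24.4 per 100 kb, and MIPOL1, a gene that flanks FOXA1, had 39.6. The 23 protein-coding genes of 100 kb or longer between the edges, these 7 among them, had a median of 48.3, with quartiles of 37.3 and 54.5. AKAP6, an anchoring protein for protein kinase A, had 36.0 per 100 kb, and the mitochondrial carrier gene SLC25A21 had 43.3. LRFN5, in the gene-poor plateau from 40000000 to 43000000, had 13.8 per 100 kb, with 5 common, 18 control-specific and 18 depleted-specific members in its 297.7 kb. NOVA1 lies in the lowest plateau between the edges, which held 102.0 members per Mb.

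Of the 6 developmental transcription factor genes, 3 had members in their body. NPAS3, a neuronal bHLH-PAS factor gene of 886.5 kb, had 343 (59 common, 133 control-specific and 151 depleted-specific), or 38.7 per 100 kb. FOXA1, the liver pioneer factor, had 2 members in its body, 1 common and 1 depleted-specific, of 34 and 12 tags, and a common promoter peak. It was the nearest gene of 78 members (21 common, 32 control-specific and 25 depleted-specific). PAX9, a factor of pharyngeal and tooth development, had 4 in its body and was nearest to 80. NKX2-1, a lung and thyroid factor, had none in its body, was nearest to 8, and had a depleted-specific promoter peak. NKX2-8 had none in its body and was nearest to 30.

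Of 9 metabolic and stress genes, 5 had members in their body, 399 in total, of which EGLN3 accounted for 376 (134 common, 121 control-specific and 121 depleted-specific, or 69.8 per 100 kb). The annotated body of EGLN3 overlaps SPTSSA, so the 22 members in the body of SPTSSA are counted for both. DHRS2, a short-chain dehydrogenase gene, had 13 in 15.5 kb. PCK2, the mitochondrial phosphoenolpyruvate carboxykinase, had 8 (3, 4 and 1), and its promoter peak was common. NFKBIA had 1 common member of 33 tags in its body, a common promoter peak, and 99 members nearest to it. TINF2, a shelterin gene, had 1 depleted-specific member of 11 tags. DHRS4, CIDEB, APEX1 and PNP had none in their bodies. APEX1 and PNP lie before the left edge.

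Chromosomes 20 and 16 were compared as other dense places, at 129.3 and 58.5 distal peaks per Mb against 321.7 in the segment. Their ratios of depleted-specific to control-specific distal peaks were 1.13 (1.08 to 1.19) and 1.15 (1.08 to 1.23), above the interval of the segment ratio of 0.976. Of control-library distal peaks, 30.6% on chromosome 20 (29.3% to 31.95%) and 34.1% on chromosome 16 (32.4% to 35.96%) were common, below the 41.3% of the segment. Both the ratio and the common share differed with density inside the segment, and both moved under other settings. Those settings were not run on chromosomes 20 and 16, and the part of density in these comparisons was not tested. FOXA matches were found in 11.7% of distal peaks on chromosome 20 and 12.5% on chromosome 16. Segment members held them less often, by -2.05 points (-3.00 to -1.09) and -2.86 points (-4.03 to -1.73). For HNF4 the differences were -0.483 points (-0.755 to -0.218) and -0.886 points (-1.28 to -0.531). The CTCF core was lower in segment members too, by -2.76 points against chromosome 20 (-3.89 to -1.62) and by -4.19 points against chromosome 16 (-5.56 to -2.83). AP-1 was lower against chromosome 16 (-2.24 points, -3.41 to -1.09), while its interval against chromosome 20 and both intervals for CEBP included 0. Lower shares in the segment were thus also seen for motifs other than those of the liver factors FOXA and HNF4. The GC content of the sequence was 38.5% in the segment, 43.8% on chromosome 20 and 44.6% on chromosome 16. Windows of these chromosomes were not counted, and the part of base composition in the differences was not tested.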

How the data were processed

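FAIRE-seq was measured in 1 control and 1 NR2E3-depleted HepG2 library, grouped by the treatment in the labels. Per the labels and the methods, the authors used Trimmomatic 0.39 for trimming and Bowtie2 2.4.5 for alignment to hg38, and called peaks with HOMER at a q-value threshold of 0.05 and annotated them. No correction for copy number or input is stated, nor is the rule that divided common from specific peaks. The deposited score is the authors' tag number per peak, scaled to a library size that is not stated. If it is 10 M tags, the libraries held 24.6 M (control) and 19.7 M (depleted) tags. Tag numbers were recovered from the score steps, and scores of common peaks are on the control scale. A peak runs 300 bp from start to end, or 301 positions.

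The members, gene lists and comparisons were chosen with earlier results of these data known. Density used determined hg38 bases, and gene bodies came from GENCODE 44. The partition charged 3 times the log of the number of bins per change. Genes named were 3 lists, the 8 nearest genes with most members and the 3 with the largest difference in each direction. Peaks named were the 3 highest-scoring of each list and those at the fitted edges, and at BRMS1L a neighbour, picked after its values were seen. Some genes and peaks that this rule names are not reported here. Motif comparisons with the rest of chromosome 14, other chromosomes and score classes were also added after the values were seen. The planned repeat shares, and results without repeats, were not computed, because the annotation used names no repeats. Functions were tested on simulated data. Intervals were computed with scipy 1.17.1 and tables with pandas 2.3.3 in Python 3.11.15.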

Additional observations from a re-analysis of the deposited data

How the results depend on the processing

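Of 57 alternative values, 36 stayed within the interval of the value reported (edges, within 100 kb) and 21 moved. The ratio of depleted-specific to control-specific members, whose interval as reported includes 1, moved to opposite sides of 1 under the tag and score minimums, with intervals that exclude it. With peaks of at least 15 tags, the specific ratio was 0.359, the depleted-specific share 16.0%, the common share of control-library peaks 46.9%, the density ratio to the rest of chromosome 14 62.0 (46.6 as reported) and the median spacing 2729.5 bp. This setting counts equal tags in libraries of unequal depth and so keeps 20.8% of depleted-specific but 56.5% of control-specific members. With a score of at least 6.5, chosen after seeing the data, these were 1.39, 40.8%, 50.5%, 44.2 and 2844.5 bp. With peaks within 1000 bp merged, the depleted-specific share was 28.1%, the common share 60.4%, the density ratio 32.3 and the spacing 2874.0 bp. The density ratio was 41.8 between the fitted edges. With peaks of every annotation class, also chosen after seeing the data, it was 35.3, and the spacing was 1393.5 bp. Depleted-specific members alone put the left edge at 21000000. Spacing changed because the settings keep fewer, or more, features. The cause of the other changes was not tested. The intergenic and GC differences kept their sign in every alternative run, but with at least 15 tags the interval of the intergenic difference, 5.75 points, included 0 (-2.38 to 13.9). In the central 200 bp the FOXA share was 6.52% and the HNF4 share 0.398%. Results without repeats were not run. No paired analysis was possible because single libraries were compared without any test, and for the same reason no replicate could be left out. With 13 to 16 tags in a median member, the presence of a single peak in only 1 list is not a firm difference between libraries.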
